A study of Mus musculus with 11 samples.

Results

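The genes described here encode the enzymes of glycolysis, of fructose entry, of gluconeogenesis, of the pentose phosphate pathway and of the side branches that leave them as glucose phosphates or glycerol phosphate. The 42 genes were taken by symbol through the platform's probe annotation. Of these, 32 were measured, meaning that at least 1 probe had a detection p under 0.01 on 5 or more of the 11 arrays, out of 8234 genes so measured on the platform. Hk1, Ldhb, Pck2, Pgd, Rpe and Pgm2 had probes that did not reach this level and were above background on at most 1 array, and no probe carried the symbol Hk2, Gpi1, Eno1 or G6pdx in the annotation table. A gene with several such probes is given by the one with the highest mean over all arrays.

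Villi were taken from the small intestine of C57Bl/6J mice at an age of 5 months. There were 5 arrays from Villin-Gremlin mice, which express Gremlin, a secreted protein that blocks BMP signalling, from the Villin promoter of intestinal epithelium, and 6 arrays from wild type mice. No label says that each array came from its own mouse, so the p-values below reflect only how far these samples spread, and that spread may be technical. The comparison asks how expression in villi differs when the epithelium makes Gremlin.

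Glycolysis splits glucose into pyruvate with a net gain of ATP, and its flow is set mainly at phosphofructokinase. Enterocytes of the villus also convert dietary fructose through ketohexokinase, and the small intestine of rodents carries enzymes of gluconeogenesis. The pentose phosphate pathway turns glucose 6-phosphate into NADPH and ribose 5-phosphate, the sugar of nucleotides.

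Values are log2 signals after background correction and quantile normalization, and each change is the Villin-Gremlin mean less the wild type mean on that scale, with the standard error (SE) of the limma fit. A gene was called at a Benjamini-Hochberg adjusted p under 0.05 over all 8234 genes. Raw median signals ran from 157 to 207 per array and 13536 to 14808 probes were above background. Grem1, the mouse gene of Gremlin, averaged 13.95 ± 0.14 over the 5 Villin-Gremlin arrays, against 6.10 ± 1.51 over the 6 wild type arrays (SD). On the second principal component Villin-Gremlin 5 and wild type 1 were the most distant arrays, at -27.83 and -27.85, and values without both are given where they change a call. All 8 measured enterocyte markers, of 10 listed, had signal above background throughout, and 3 of them (Vil1, Lct and Anpep) were lower in Villin-Gremlin villi (list mean 13.77 to 14.11 on Villin-Gremlin arrays, 14.38 to 14.62 on wild type arrays). Their log2 differences were -0.34, -2.06 and -0.88. Among the markers not called they were 0.34 for Alpi, -0.33 for Sis, -0.32 for Mttp, -0.13 for Apoa4 and -0.06 for Apoa1. All 9 measured T cell markers of 12 listed were lower in Villin-Gremlin villi (list mean 7.63 to 8.70 on Villin-Gremlin arrays, 9.80 to 10.84 on wild type arrays), and all 4 measured proliferation markers of 6 listed were higher (7.29 to 8.06 against 6.08 to 6.95). Of 4 measured macrophage and dendritic cell markers 2 were lower (Fcer1g and Tyrobp, list mean 6.28 to 7.16 on Villin-Gremlin arrays, 7.51 to 8.25 on wild type arrays), as was Cd79b, the only B cell marker measured (4.88 to 6.49 against 5.74 to 7.23). Cd79b was above background on 1 of 5 Villin-Gremlin and 5 of 6 wild type arrays. For Cd7 these counts were 2 and 6, for Tyrobp 4 and 6, for Top2a 5 and 3, and for Cdk1 5 and 4. In these genes only the group with the higher values met the 5-array filter by itself, so their differences are descriptions. The part of these cell types in the values below was not tested, and in whole villi fewer cells of a type and less RNA per cell cannot be told apart.

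Of the 32 measured genes, 10 rose and 3 fell in Villin-Gremlin villi. The increases were Pfkl, Aldoc, Aldoa, Pfkm, Prps1, Rpia, Pgam1, Pgk1, Pgls and Pgm1, and the decreases were Eno3, Pck1 and Khk. Eno3 and Pck1 met the detection filter through the wild type arrays alone, so their falls are descriptions. The share that rose was 31.3% against 17.9% of all genes tested, and the share that fell was 9.38% against 16%. For calls in either direction it was 40.6% against 33.9%, so the total lay near that of all genes. The median log2 fold change was 0.13 for these genes and -0.000145 for all genes tested. In 7 of the 32 genes the groups did not overlap, against 20.5% of all genes tested.

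The 4 largest increases were all in upper glycolysis. Of 6 measured genes from phosphofructokinase to triose phosphate isomerase 4 rose and 0 fell, with a median of 1.39. In the 6 measured genes of lower glycolysis 2 rose and 1 fell, and in the 4 of pyruvate dehydrogenase and lactate dehydrogenase 0 were called by limma, with 0 also at an unadjusted p under 0.05. In fructose entry and gluconeogenesis 0 of 7 rose and 2 fell. In the pentose phosphate pathway and the synthesis of phosphoribosyl pyrophosphate (PRPP) 3 of 5 rose and 0 fell. Of all genes tested 17.9% rose and 16% fell, and each of these role groups holds few genes.

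**Figure D1:**
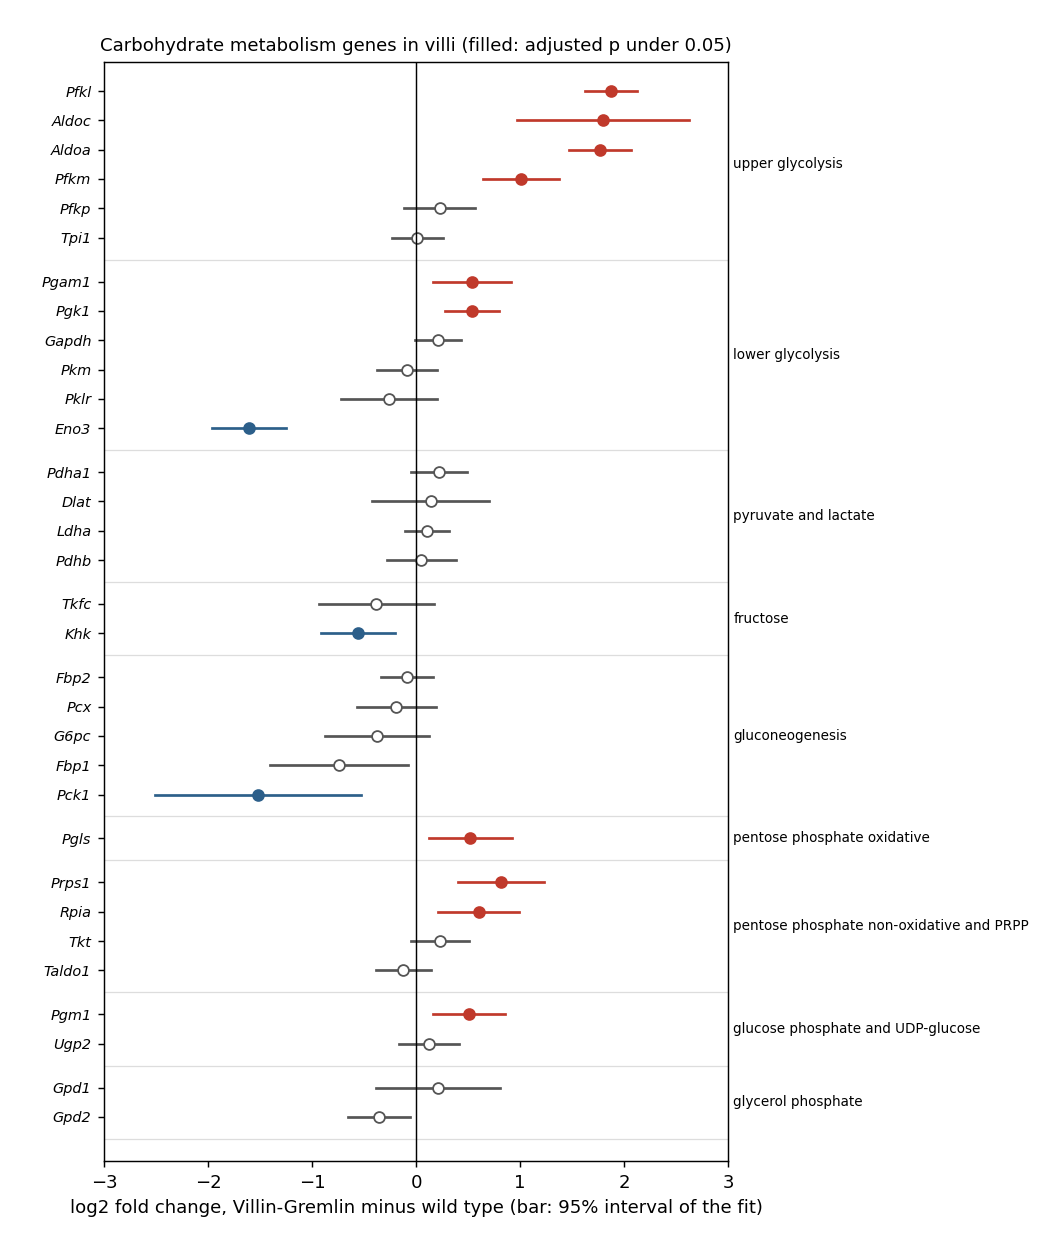
Log2 fold change, Villin-Gremlin minus wild type, of the 32 measured genes by role, with the 95% interval of the fit as a bar. Filled points passed an adjusted p of 0.05, red for higher and blue for lower. The 4 largest increases, from 1.01 to 1.87, are in upper glycolysis, and the largest decreases are Eno3 and Pck1.

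The promoter windows of the called genes are shown for the largest changes in each direction among genes with a single start in the RefSeq table (GRCm38.p6). Each gives the 250 bases before the start, 5′ to 3′ on the gene's strand. Capitals mark ACGTG or GCGTG on either strand, both forms of the core that hypoxia-inducible factor binds. Pfkl lies at chr10:78009808-78010057 (minus strand), Prps1 at chrX:140456353-140456602 (plus), Eno3 at chr11:70656926-70657175 (plus) and Pck1 at chr2:173152823-173153072 (plus).
Pfkl: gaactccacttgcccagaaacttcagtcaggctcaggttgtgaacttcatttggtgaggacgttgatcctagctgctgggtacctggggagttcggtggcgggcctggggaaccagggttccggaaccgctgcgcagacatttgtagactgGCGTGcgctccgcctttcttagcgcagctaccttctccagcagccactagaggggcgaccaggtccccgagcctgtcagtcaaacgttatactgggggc
Prps1: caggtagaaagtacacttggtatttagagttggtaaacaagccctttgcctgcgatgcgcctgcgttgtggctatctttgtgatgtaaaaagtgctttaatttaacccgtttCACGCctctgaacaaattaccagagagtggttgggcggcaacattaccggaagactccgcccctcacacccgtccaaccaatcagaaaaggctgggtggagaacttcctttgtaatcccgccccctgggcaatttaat
Eno3: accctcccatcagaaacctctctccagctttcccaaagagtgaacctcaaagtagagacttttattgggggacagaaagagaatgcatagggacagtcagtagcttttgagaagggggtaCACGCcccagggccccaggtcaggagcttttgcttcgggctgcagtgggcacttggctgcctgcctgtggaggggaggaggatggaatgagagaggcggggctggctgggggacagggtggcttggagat
Pck1: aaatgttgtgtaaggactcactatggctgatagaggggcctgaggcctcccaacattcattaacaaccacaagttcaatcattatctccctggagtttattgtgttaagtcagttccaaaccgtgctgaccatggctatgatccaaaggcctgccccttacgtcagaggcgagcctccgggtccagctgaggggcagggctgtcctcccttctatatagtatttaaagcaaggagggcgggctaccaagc

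The window of Pfkl held 1 match, which began 99 bases before the start, and those of Prps1 and Eno3 1 match each, at 138 and 130 bases. The window of Pck1 held 0. Of the 16 windows of the 10 genes that rose, 14 held a match, against 2 of 3 windows of the 3 genes that fell, 58.3% of the 24 windows of 18 genes that were not called, 56.3% of the windows of all genes tested and 38.6% of all windows in the table. Windows of starts that lie close together in 1 gene overlap and can share a match, so they are not independent. These are letter counts, and a match is not a bound site. The E-box CACGTG, which contains ACGTG, was in 5 of 43 windows of the measured genes and in 6.02% of all windows. The table held windows for 31 of the 32 measured genes.

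Pfkl, the liver-type subunit of phosphofructokinase, the committing enzyme of glycolysis, was the largest increase. It read 12.26, 12.23, 12.19, 11.95 and 12.13 on Villin-Gremlin arrays 1 to 5, against a lowest of 10.11, a median of 10.20 and a highest of 10.52 over the 6 wild type arrays. Every Villin-Gremlin array lay above every wild type array, by at least 1.43 log2 units. The log2 fold change was 1.87 ± 0.12 (SE), a 3.66-fold rise (limma adjusted p = 4.09e-07). A second, dim Pfkl probe, above background on 6 of 11 arrays, differed by 0.39 ± 0.21 (adjusted p = 0.173 over probes), and the mean of both probes gave 1.13.

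Pfkm, the muscle-type subunit, read 9.03, 9.12, 8.87, 8.87 and 8.91 on Villin-Gremlin arrays 1 to 5, against a lowest of 7.52, a median of 7.93 and a highest of 8.56 over the 6 wild type arrays. The groups did not overlap, although wild type 5 came within 0.31 of the lowest Villin-Gremlin array. The rise was 2.01-fold (1.01 ± 0.17, adjusted p = 0.000589), and a second kept probe rose by 0.72 ± 0.20. Pfkp, the platelet-type subunit, differed by 0.23 ± 0.16 and did not pass the test (95% interval -0.11 to 0.56), and its second kept probe differed by 0.25 ± 0.22.

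The brightest probes of the subunits shifted against each other on the same arrays. The difference Pfkp minus Pfkl was 0.05 ± 0.29 (SD, n = 5) with Gremlin, against 1.70 ± 0.20 (SD, n = 6) in the wild type. The change was -1.65 (two-sided exact permutation p = 0.00216, adjusted p = 0.0152 over 7 gene pairs). The difference Pfkm minus Pfkl was -3.19 ± 0.09 (SD, n = 5) against -2.33 ± 0.33 (SD, n = 6), a change of -0.86 (exact p = 0.00433, adjusted p = 0.0152). With 462 splits of the arrays, 0.00216 is the smallest p this test can give. In both pairs the groups did not overlap. Both pairs contain Pfkl, already called above, and the pairs were chosen with earlier results of these data known. Their p-values are therefore not support separate from the call of Pfkl. The shift rests on the brighter Pfkl probe. The dim Pfkl probe changed by 0.39, less than Pfkm (1.01) and slightly more than Pfkp (0.23). With it Pfkm rose more than Pfkl, the opposite direction, and the differences with that probe were not tested. Only the change between groups carries meaning here, since the level of a probe is not comparable with that of another.

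Aldoa, aldolase A, which cleaves fructose 1,6-bisphosphate, read 13.21, 12.92, 13.31, 12.93 and 13.25 on Villin-Gremlin arrays 1 to 5, against a lowest of 10.98, a median of 11.34 and a highest of 11.65 over the 6 wild type arrays. The groups were separated by 1.27 log2 units. It rose 3.41-fold (1.77 ± 0.14, adjusted p = 2.60e-06). It has 1 probe on the array.

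Aldoc, aldolase C, an isoenzyme best known from brain, read 11.54, 11.20, 11.57, 11.90 and 11.66 on Villin-Gremlin arrays 1 to 5, against a lowest of 7.81, a median of 10.09 and a highest of 10.39 over the 6 wild type arrays. Wild type 1, at 7.81, stood far below the other wild type arrays, which lay between 10.03 and 10.39. The rise was 3.49-fold (1.80 ± 0.38, adjusted p = 0.00302), and without wild type 1 the log2 fold change was 1.41. The difference Aldoc minus Aldoa changed by 0.03 between the groups (exact p = 0.974), and by -0.29 without wild type 1.

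Tpi1, triose phosphate isomerase, joins the products of aldolase. It read 14.62, 14.64, 14.54, 14.65 and 14.30 on Villin-Gremlin arrays 1 to 5, against a lowest of 14.32, a median of 14.57 and a highest of 14.69 over the 6 wild type arrays. The groups overlapped almost fully, and the log2 fold change was 0.01 ± 0.11 (95% interval -0.23 to 0.26). Its other 2 kept probes differed by 0.01 ± 0.13 and 0.31 ± 0.28. At the hexokinase step Hk1 was not measured, and Hkdc1, which encodes a hexokinase domain protein, differed by 0.14 ± 0.14 (adjusted p = 0.476).

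In lower glycolysis Pgk1, phosphoglycerate kinase, the first step to yield ATP, read 13.92, 13.54, 13.52, 13.62 and 13.70 on Villin-Gremlin arrays 1 to 5, against a lowest of 12.96, a median of 13.09 and a highest of 13.37 over the 6 wild type arrays. All Villin-Gremlin arrays were above all wild type arrays, with a gap of 0.15 between the nearest. It rose 1.45-fold (0.54 ± 0.12, adjusted p = 0.00378). With median scaling in place of quantile normalization the change was 0.45 and the call was lost (adjusted p = 0.0501).

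Pgam1, phosphoglycerate mutase, rose 1.45-fold (0.54 ± 0.17, adjusted p = 0.0284), with a second probe at 0.63 ± 0.18. Its groups overlapped through wild type 6 at 10.52, and the call was lost under median scaling (adjusted p = 0.161), with the values the authors processed (0.0510) and without Villin-Gremlin 1, Villin-Gremlin 3, wild type 2 or wild type 4 (0.0723, 0.0514, 0.0552 and 0.0580).

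Eno3, the muscle enolase, was the largest decrease among these genes. It read 6.16, 5.74, 6.22, 6.01 and 5.64 on Villin-Gremlin arrays 1 to 5, against a lowest of 7.18, a median of 7.54 and a highest of 7.92 over the 6 wild type arrays. The groups did not overlap, and the probe was detected on 3 of 5 arrays from Villin-Gremlin villi and 6 of 6 from wild type villi. It fell to 5.96 ± 0.25 (SD, n = 5), against 7.56 ± 0.29 (SD, n = 6) in wild type villi (log2 fold change -1.61 ± 0.16, adjusted p = 1.67e-05). The wild type arrays alone were enough for the detection filter, so the fall is given as a description. The Villin-Gremlin values lie near the lowest detected value of their arrays (5.85 to 6.15), so the size of the fall is uncertain. Without background correction the change was -0.66. Of muscle markers, Acta1, the only one of 7 skeletal muscle genes measured, differed by -0.42 ± 0.43, and of 3 measured smooth muscle genes of 6 listed 0 passed the test. The smooth muscle list mean was 5.12 to 8.0 on Villin-Gremlin arrays and 6.10 to 10.57 on wild type arrays, and its part in Eno3 was not tested.

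Gapdh, which oxidises glyceraldehyde 3-phosphate, read 14.59, 14.36, 14.55, 14.43 and 14.50 on Villin-Gremlin arrays 1 to 5, against a lowest of 14.09, a median of 14.29 and a highest of 14.41 over the 6 wild type arrays. The groups overlapped, and the difference of 0.21 ± 0.10 did not pass the test (95% interval -0.01 to 0.43). Pkm and Pklr, the genes of pyruvate kinase, differed by -0.09 ± 0.13 (95% interval -0.37 to 0.20) and -0.26 ± 0.21 (95% interval -0.73 to 0.20). The difference Pkm minus Pklr changed by 0.18 (exact p = 0.407).

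**Figure D2:**
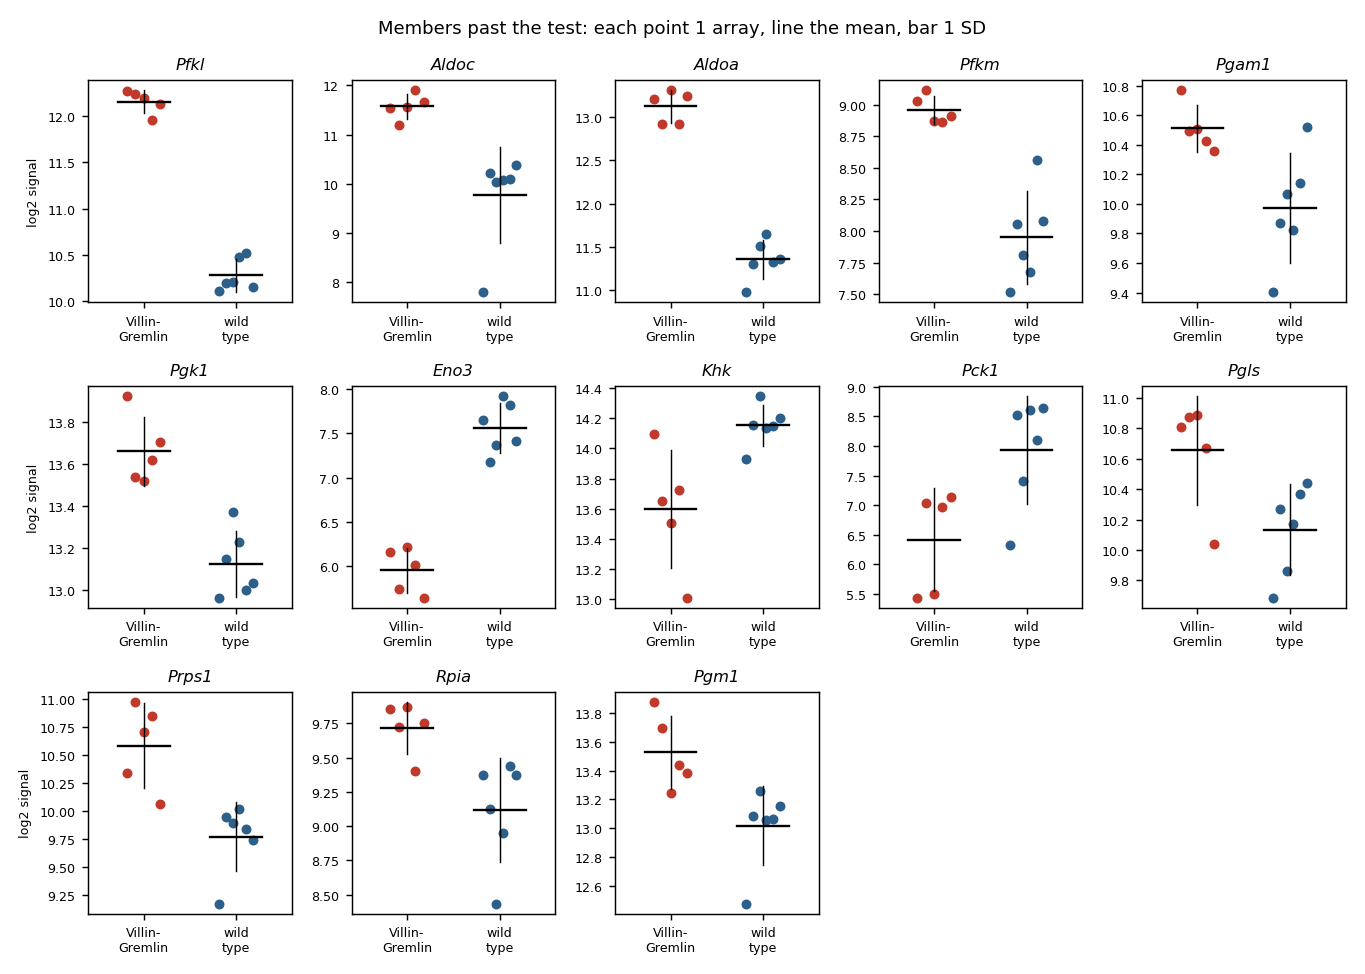
Log2 signal on each array of the 13 genes past the test, Villin-Gremlin at the left (red, n = 5) and wild type at the right (blue, n = 6), with the mean as a line and 1 SD as a bar. The axes do not start at 0 and differ between genes. Wild type 1 is the lowest wild type array in 11 of the 13 genes.

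Ldha, Pdha1, Pdhb and Dlat, the measured members of lactate dehydrogenase and pyruvate dehydrogenase, did not pass the test. Ldha, lactate dehydrogenase A, read 14.79, 14.86, 14.92, 14.91 and 14.68 on Villin-Gremlin arrays 1 to 5, against a lowest of 14.63, a median of 14.70 and a highest of 14.85 over the 6 wild type arrays. It differed by 0.11 ± 0.10 (95% interval -0.11 to 0.32). Pdha1 and Pdhb, the subunits of the first enzyme of pyruvate dehydrogenase, differed by 0.22 ± 0.12 and 0.05 ± 0.15, and Dlat, its acetyltransferase, by 0.14 ± 0.26. The 3 kept probes of Pdhb gave 0.05, 0.06 and 0.14. The difference Pdhb minus Pdha1 changed by -0.17 (exact p = 0.232).

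The 4 kinase genes of the complex and the phosphatase gene Pdp2 passed the test, while Pdpr, a regulatory subunit of the phosphatase, differed by -0.11 ± 0.15 and did not (adjusted p = 0.600). Of 9 measured genes of pyruvate entry and pyruvate dehydrogenase control, from 13 listed, 2 rose and 5 fell, against 17.9% higher and 16% lower of all genes tested. Pdk1, a kinase that switches the complex off, read 9.96, 9.66, 9.67, 9.63 and 9.32 on Villin-Gremlin arrays 1 to 5, against 7.45, 7.84, 8.06, 7.77, 7.67 and 8.10 on wild type arrays 1 to 6. Every Villin-Gremlin array was at least 1.22 above every wild type array, and the rise was 3.56-fold (1.83 ± 0.15, adjusted p = 3.47e-06). The other 3 kinases ran the other way.

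Pdk2 read 7.88, 7.63, 8.08, 8.27 and 8.12 on Villin-Gremlin arrays 1 to 5, against 8.95, 9.24, 8.76, 9.63, 9.13 and 9.90 on wild type arrays 1 to 6, with no overlap (-1.27 ± 0.20, adjusted p = 0.000401). Pdk3 was also without overlap at -1.38 ± 0.31 (adjusted p = 0.00400), and Pdk4, a kinase that fasting induces, was at -1.70 ± 0.38 (adjusted p = 0.00423) with Villin-Gremlin 5 above wild type 3 and wild type 5. Pdp2, a phosphatase that switches the complex back on, fell by 0.90 ± 0.18 on the log2 scale (adjusted p = 0.00211), and its other 2 kept probes fell by 1.12 and 1.11. The other 2 called genes of this list, named after their values were seen, were malic enzymes, which make pyruvate from malate: Me1 rose 2.83-fold (adjusted p = 0.00978) and Me2 was at -1.24 on the log2 scale (adjusted p = 0.0106). No probe carried the symbol Mpc1, of the mitochondrial pyruvate carrier.

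Ldhd, which oxidises D-lactate, had the highest log2 difference among the related genes. It read 7.67, 7.57, 8.97, 8.39 and 9.07 on Villin-Gremlin arrays 1 to 5, against 5.17, 5.74, 5.07, 6.14, 6.25 and 6.02 on wild type arrays 1 to 6. Its probe was detected on 5 of 5 arrays from Villin-Gremlin villi and 2 of 6 from wild type villi, so most wild type values lie at background and the size of the difference is uncertain. The log2 difference was 2.60 with background correction and 1.22 without it, and 2.18 in a second kept probe. The Villin-Gremlin arrays alone were enough for the detection filter, so it is given as a description.

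**Figure D3:**
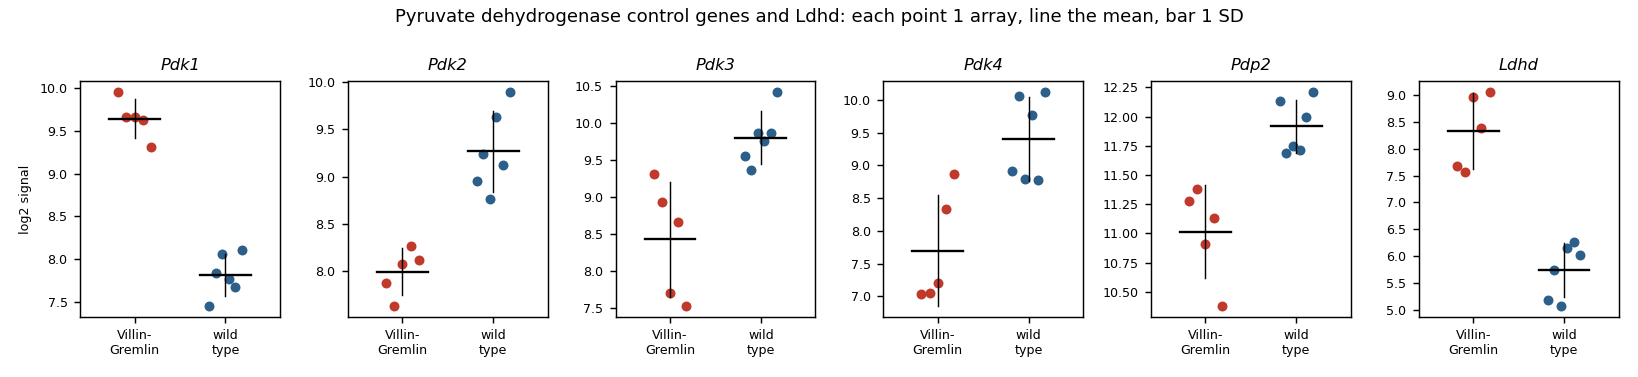
Log2 signal on each array of the 4 pyruvate dehydrogenase kinase genes, of Pdp2 and of Ldhd, Villin-Gremlin at the left (red, n = 5) and wild type at the right (blue, n = 6), with the mean as a line and 1 SD as a bar. The axes do not start at 0. Pdk1 and Ldhd are higher on every Villin-Gremlin array, and Pdk2, Pdk3 and Pdp2 lower on every one.

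Khk, ketohexokinase, which phosphorylates dietary fructose, read 14.09, 13.65, 13.51, 13.72 and 13.01 on Villin-Gremlin arrays 1 to 5, against a lowest of 13.93, a median of 14.15 and a highest of 14.35 over the 6 wild type arrays. Villin-Gremlin 1 lay within the wild type range and Villin-Gremlin 5, at 13.01, lowest of all. It fell by 0.56 ± 0.17 on the log2 scale (adjusted p = 0.0201), and its second probe differed by -0.38 ± 0.16 (adjusted p = 0.0770 over probes). Tkfc, the triokinase that acts further down the same route, differed by -0.38 ± 0.26 (95% interval -0.93 to 0.17), with Villin-Gremlin 2 at 11.66 and wild type 1 at 12.27 the lowest of their groups.

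Among genes of gluconeogenesis all 5 measured had negative fold changes and 1 passed. Pck1, the cytosolic phosphoenolpyruvate carboxykinase, read 5.43, 7.04, 5.49, 6.97 and 7.13 on Villin-Gremlin arrays 1 to 5, against 6.33 on wild type 1 and 7.40 to 8.63 on the other wild type arrays. It was detected on 3 of 5 arrays from Villin-Gremlin villi and 6 of 6 from wild type villi, and the groups overlapped only through wild type 1. The wild type arrays alone were enough for the detection filter, so the fall is given as a description and its size is uncertain. The log2 fold change was -1.52 ± 0.46 (adjusted p = 0.0213), and -1.17 ± 0.34 in its second probe. It was -0.74 without background correction, and the call was lost without Villin-Gremlin 1 or 3 (adjusted p = 0.0583 and 0.0598) and with no detection filter (0.0508).

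Fbp1, fructose bisphosphatase 1, differed by -0.74 ± 0.31 (adjusted p = 0.0824). Wild type 1 read 9.11 where the other wild type arrays read 10.39 or more, and without it the change was -1.01 and passed (adjusted p = 0.00198). Fbp2, the second isoenzyme, read 13.83, 13.75, 13.50, 13.73 and 13.48 on Villin-Gremlin arrays 1 to 5, against a lowest of 13.52, a median of 13.78 and a highest of 13.94 over the 6 wild type arrays, and differed by -0.09 ± 0.12 (95% interval -0.34 to 0.16). The difference Fbp2 minus Fbp1 changed by 0.65 (exact p = 0.0974, adjusted p = 0.186). G6pc, the phosphatase that releases free glucose, differed by -0.38 ± 0.23, and Pcx, pyruvate carboxylase, by -0.19 ± 0.17. Without both Villin-Gremlin 5 and wild type 1, Fbp1 was at -0.94 and Pcx at -0.42, and both passed (adjusted p = 0.00478 and 0.0264).

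Of 7 measured genes on the list of other glucose release, 1 fell and 0 rose, a share called of 14.3% against 33.9% of all genes tested. Slc37a4, which carries glucose 6-phosphate to that phosphatase, fell by 1.22 ± 0.24 on the log2 scale (adjusted p = 0.00165), with no overlap.

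In the pentose phosphate pathway Pgls, 6-phosphogluconolactonase, was the only one of 3 oxidative genes measured. It read 10.80, 10.88, 10.89, 10.67 and 10.04 on Villin-Gremlin arrays 1 to 5, against a lowest of 9.69, a median of 10.22 and a highest of 10.44 over the 6 wild type arrays. Villin-Gremlin 5 fell within the wild type range. The rise of 0.52 ± 0.19 (adjusted p = 0.0444) lay close to the threshold: it was lost in 13 of 22 alternatives, among them scaling by the median (adjusted p = 0.241) and the values the authors processed (0.0785), and it was lost when any array other than Villin-Gremlin 5, wild type 5 or wild type 6 was left out (0.0571 to 0.103).

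Rpia, ribose 5-phosphate isomerase, rose 1.52-fold (0.60 ± 0.18, adjusted p = 0.0199), though not with median scaling (0.49, adjusted p = 0.0982). Its lowest Villin-Gremlin array, at 9.40, lay just under the highest wild type array at 9.44. Prps1, which makes PRPP from ribose 5-phosphate, read 10.34, 10.98, 10.70, 10.85 and 10.06 on Villin-Gremlin arrays 1 to 5, against a lowest of 9.17, a median of 9.87 and a highest of 10.02 over the 6 wild type arrays. The groups did not overlap, with Villin-Gremlin 5 within 0.04 of the highest wild type array, and the rise was 1.76-fold (0.82 ± 0.19, adjusted p = 0.00568).

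Taldo1, transaldolase, read 13.97, 13.80, 13.51, 13.40 and 13.67 on Villin-Gremlin arrays 1 to 5, against a lowest of 13.60, a median of 13.82 and a highest of 13.92 over the 6 wild type arrays. It differed by -0.12 ± 0.12 (95% interval -0.39 to 0.14), and Tkt, transketolase, by 0.23 ± 0.13 (95% interval -0.05 to 0.51). Of 5 other measured pentose phosphate and PRPP genes, 3 rose and 0 fell, against 17.9% and 16% of all genes tested. H6pd, the glucose 6-phosphate dehydrogenase of the endoplasmic reticulum, rose by 0.90 ± 0.17, Prps2, the second PRPP synthetase, by 0.82 ± 0.22, and Prpsap1, a partner protein of these synthetases, by 0.92 ± 0.23 (adjusted p = 0.00159, 0.0126 and 0.00745). Without background correction H6pd changed by 0.59 and Prps2 by 0.39, and Prps2 was at 0.52 without both Villin-Gremlin 5 and wild type 1. Proliferation markers were higher on the same arrays, as given above, and their part was not tested.

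Pgm1, phosphoglucomutase, which links glucose 6-phosphate to glycogen and UDP-glucose, read 13.88, 13.69, 13.25, 13.44 and 13.38 on Villin-Gremlin arrays 1 to 5, against a lowest of 12.47, a median of 13.07 and a highest of 13.26 over the 6 wild type arrays. Villin-Gremlin 3 lay just under wild type 3, so the groups overlapped by that 1 pair. It rose 1.43-fold (0.51 ± 0.16, adjusted p = 0.0250), with 0.64 ± 0.14 in its second probe. The call was lost with median scaling (0.40, adjusted p = 0.149) and without Villin-Gremlin 1 or 2 (0.0683 and 0.0581). Ugp2, which makes UDP-glucose, differed by 0.12 ± 0.13 (95% interval -0.16 to 0.41).

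Gpd1 and Gpd2, the cytosolic and mitochondrial glycerol 3-phosphate dehydrogenases that shuttle electrons from glycolysis, were not called. Gpd2 read 13.71, 13.26, 13.71, 13.58 and 13.51 on Villin-Gremlin arrays 1 to 5, against a lowest of 13.58, a median of 13.98 and a highest of 14.16 over the 6 wild type arrays. It differed by -0.36 ± 0.14 (adjusted p = 0.0625), and by -0.24 ± 0.14 in its second probe. Gpd1 differed by 0.21 ± 0.28 (95% interval -0.38 to 0.81). The difference Gpd2 minus Gpd1 changed by -0.57 (exact p = 0.106, adjusted p = 0.186).

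**Figure D4:**
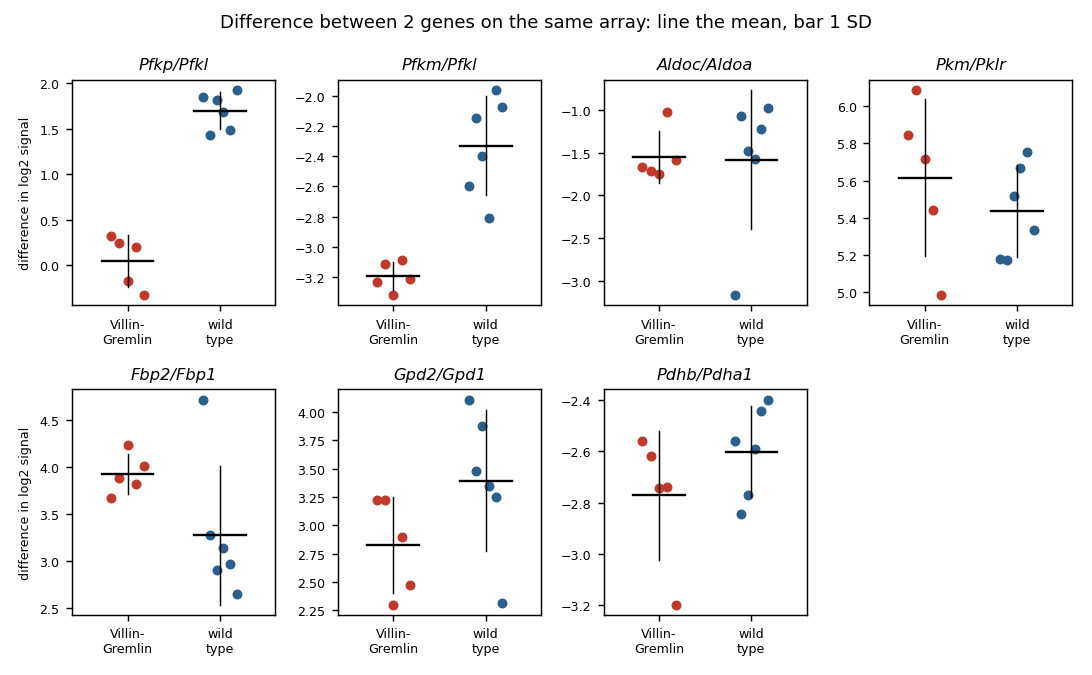
Difference in log2 signal between 2 genes on the same array (first gene minus second) for the 7 pairs with both genes measured, Villin-Gremlin at the left (red, n = 5) and wild type at the right (blue, n = 6), with the mean as a line and 1 SD as a bar. The axes do not start at 0. The groups separate for Pfkp/Pfkl and Pfkm/Pfkl and overlap for the other 5 pairs.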

How the data were processed

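Illumina bead arrays were hybridised with biotinylated cRNA made with an Ambion MessageAmp kit from total RNA, per the labels' protocols. Per the file headers, each deposited column pair gives the linear intensity, not normalized, and a detection p-value for each of 45281 probes on 11 arrays. A second deposited table holds the authors' processed log2 values, and no source used here names how they were normalized. They followed the log2 raw signals of the same array (r = 0.947 to 0.966 over probes), with column medians of 5.04 to 5.13. So the scale is log2 with no centring by gene, and the background step and normalization stay unknown.

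Through the platform's annotation, 34885 probes had 1 gene symbol, 18 several and 10378 none. Signals went through the neqc function (limma 3.58.1, R 4.3.3) (background from the detection p-values, offset 16, quantile). A probe needed a detection p below 0.01 on 5 or more arrays, and the brightest such probe stood for its gene. Genotype was fitted with lmFit and eBayes. Pairs of genes for the same reaction or, for Pdhb and Pdha1, the same enzyme were compared by exact permutation (Python 3.11.15). The p-values were adjusted over 7 of 12 listed pairs with both genes measured. The number of arrays limits the precision. Nothing in the labels ties equal replicate numbers together, so the numbers were not used as pairs. The deviations of arrays with the same title number correlated at -0.20 to 0.11. The columns of the Villin-Gremlin arrays are numbered otherwise than their titles. Pairs by column name were not examined, so these correlations do not speak to them. Members, lists, pairs and the naming rule were chosen with earlier results of these data known: each measured member may be named, with per-array values for called members whose groups do not overlap and for the brightest member of each role, and up to 4 called genes of each related list and the genes that complete a reaction. Alternatives changed the background correction, offset, scaling, detection filter, probe rule and prior, used the authors' values, added sex or replicate as a covariate, and left out arrays.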

Additional observations from a re-analysis of the deposited data

Results flagged for a closer look

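In 11 of 102 groups of arrays examined, 1 array stood far from the rest of its group by Dixon's test at the 95% level. Chance alone gives this in about 1 of 20 independent groups. Genes read on the same arrays are not independent, so the count cannot be set against that rate. Aldoc read 7.81 on wild type 1, against 10.03 to 10.39 on the other wild type arrays. Prps1 read 9.17 on wild type 1 (others 9.75 to 10.02) and Pgm1 12.47 (others 13.06 to 13.26). Pcx read 8.06 on Villin-Gremlin 5 (others 7.34 to 7.48) and Pgls 10.04 (others 10.67 to 10.89). Wild type 1 and Villin-Gremlin 5 are the arrays that lie apart on the second principal component. Villin-Gremlin 5 was also the only array above background for the exocrine pancreas genes Cela2a, Cpa1, Prss2 and Ctrb1. They read 10.52, 8.03, 9.12 and 9.02 there. Wild type 1 had the highest smooth muscle list mean, at 10.57. The part of these tissues in the values of the 2 arrays was not tested.

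Among related genes, Prpsap1 read 10.63 on Villin-Gremlin 5 (others 11.47 to 11.65), Prps2 8.37 (others 6.99 to 7.35) and Ppargc1a 9.19 (others 10.61 to 11.08). Galm read 10.97 on wild type 1 (others 11.65 to 11.83). Gyg read 6.58 on Villin-Gremlin 1 (others 7.13 to 7.32) and 5.43 on wild type 1 (others 6.26 to 6.70).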

How the results depend on the processing

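The count of 10 members higher and 3 lower became 5 higher with median scaling, where Pgk1, Pgam1, Pgls, Rpia and Pgm1 missed the threshold and 919 in place of 1476 of all genes were higher, and where the median of all genes was -0.09. It became 1 lower among probes detected on all arrays, which left 30 members without Eno3 and Pck1, and 5 lower without both Villin-Gremlin 5 and wild type 1, where Fbp1 (-0.94) and Pcx (-0.42) passed. With 1 array left out, 7 to 10 members were higher and 2 to 4 lower. The replicate number of the titles, which the labels do not support as a pairing, was used as a block. It gave 8 higher and 2 lower members and 1203 higher and 1033 lower of all genes. Khk, Pgls and Pgm1 then missed the threshold. The change of Fbp2 minus Fbp1 passed without both arrays (0.92); over single arrays left out it ran from 0.52 to 0.94, and that of Gpd2 minus Gpd1 from -0.79 to -0.43, the 2 passing without wild type 1 and without wild type 6. Gpd2 itself passed without background correction (-0.35), with a trended and robust prior and without wild type 6. Hif1a reversed with the mean of a gene's probes (0.89), where its 2 kept probes differ in sign. The calls of Pfkl, Aldoa, Aldoc, Pfkm and Prps1 kept their direction and passed in each alternative run. Eno3 did so in each alternative in which it was measured. It met the detection filter of the main fit only through the wild type arrays, so its fall is a description. Position or slide as a covariate was not run, because the column headers name none. Dim probes limit the size of changes: without background correction Eno3, Pck1, Ldhd, Gyg, Pgm3, Prps2, Pygl, Hif1a, Pgam5, H6pd and Mlxip changed by over 1.5 times less.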

Other observations

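Of 5 measured genes on the glycogen list 1 rose and 2 fell, and of 2 on the galactose and polyol list 0 rose and 1 fell, against 17.9% higher and 16% lower of all genes tested. Gyg, glycogenin, which primes glycogen, rose by 0.84 ± 0.21 (log2, SE; limma adjusted p = 0.00742). Pygl, glycogen phosphorylase of liver, was at -0.97 ± 0.20 (adjusted p = 0.00244). Pgm3, which acts on N-acetylglucosamine phosphate and is no enzyme of glycogen, was at -0.75 ± 0.15 (adjusted p = 0.00232). Pgm3 was above background on 4 of 5 Villin-Gremlin and 6 of 6 wild type arrays. Only the wild type group met the detection filter by itself, so the difference of Pgm3 is a description. Without background correction Gyg changed by 0.33, Pygl by -0.59 and Pgm3 by -0.28. Galm, the mutarotase of galactose, was at -0.54 ± 0.17 (adjusted p = 0.0241), and its call was lost without Villin-Gremlin 3, wild type 4 or wild type 5 (adjusted p = 0.0607, 0.0511 and 0.0501). Pgam5, a mitochondrial phosphatase with a mutase-like fold, rose by 0.62 ± 0.14 (adjusted p = 0.00404), or by 0.39 without background correction.

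Of 8 measured regulators 1 rose and 2 fell, a share called of 37.5%, near the 33.9% of all genes tested. Mlxip, a glucose-sensing transcription factor, rose by 0.64 ± 0.16 (adjusted p = 0.00792), or by 0.42 without background correction. Ppargc1a, a coactivator of gluconeogenic and mitochondrial genes, was at -0.91 ± 0.28 (adjusted p = 0.0238), at -0.59 without Villin-Gremlin 5 and not past the test without wild type 5 (adjusted p = 0.0501) or with no detection filter (0.0521). Hif1a, the oxygen-regulated subunit of hypoxia-inducible factor, gave values of opposite sign by probe. Its brighter probe read 7.68 in Villin-Gremlin villi and 8.49 in wild type villi (-0.81 ± 0.27, adjusted p = 0.0346). That value was -0.49 without Villin-Gremlin 3, which read 6.40, and the call was lost without Villin-Gremlin 4 or wild type 3, 4 or 5 (adjusted p = 0.0575, 0.0557, 0.0666 and 0.0628) and with no detection filter (0.0723). Its second kept probe read 6.99, 7.05, 7.89, 7.26 and 7.56 on Villin-Gremlin arrays 1 to 5 and 4.60 to 4.90 on the wild type arrays. That probe was detected on 5 of 5 arrays from Villin-Gremlin villi and 0 of 6 from wild type villi, at least 2.43-fold higher. It passed the detection filter only through the Villin-Gremlin arrays, so this is a description with no test.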
